A study of Mus musculus with 4 samples.

Results

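Cripto KO cells were compared in 2 cultures, serum/LIF and F/A, over every gene of the normalized table, 15462 of the 37620 genes counted. The cells were R1 mouse embryonic stem cells (ESCs) of strain 129/Sv in which Cripto (gene symbol Tdgf1) had been knocked out. The first culture was kept in serum with leukaemia inhibitory factor (serum/LIF). The second was seeded at low density in N2B27 medium for 6 days with bFGF (basic FGF) plus Activin A, the latter at 20 ng/ml (F/A), the treatment used to turn ESCs into epiblast stem cells (EpiSCs). WT cells of the same strain went through the same 2 cultures, and the study asked whether Cripto matters in this conversion. The study worked with more than 1 knockout clone, and the clone behind these libraries is not given in the sources used here.

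LIF signalling through Stat3 holds ESCs in the naive state of the preimplantation embryo, whereas FGF and Activin/Nodal signalling hold EpiSCs in the primed state of the postimplantation epiblast. Cripto is a small membrane-bound protein that Nodal needs as a co-receptor to signal through Activin receptors, while Activin itself can signal without it. Cells of the late epiblast move through the primitive streak under Wnt, BMP and Nodal signals and become mesoderm and endoderm, and the Hox clusters are opened in order as they do so.

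With 1 library per condition there was no replicate error and no test between the cultures was possible. Counts on genes summed to 15740587 in the Cripto KO F/A library and to 16260578 in the Cripto KO serum/LIF library, within the 15230856 to 17315442 of the 4 libraries of the study. The Cripto KO F/A library stood apart in that 3 of its 18700 detected genes had an odd count (0.016%, 95% Wilson interval 0.00546% to 0.0472%), whereas odd counts made up 53.1% to 53.6% in the others. Its counts were therefore divided by 2 wherever a counting interval was computed. Tdgf1 itself had 945 counts in serum/LIF and 86 in F/A, against 18714 and 1572 in the WT cultures.

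Levels are given as normalized counts, the deposited quantile-normalized values, in which the libraries have the same distribution. They are compared between libraries and not between genes, whose lengths differ. A gene was called higher or lower in F/A when its normalized counts differed by at least 2-fold and the 95% counting interval of the ratio excluded 1. The verbs rose and fell are used for genes that passed this rule and describe these 2 libraries. Intervals in parentheses are 95% Clopper-Pearson intervals of the fold and cover counting error only. Where a library had 0 counts, a fold is given as a lower bound against the detection limit of 3 counts, or 6 counts in Cripto KO F/A. In bulk RNA, fewer cells of a type and less RNA per cell cannot be told apart.

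Between the 2 Cripto KO cultures 5822 genes (37.7%) were called. In F/A 2986 (19.3%) were the higher and 2836 (18.3%) the lower ones. The counts called in each gene list below are to be read beside these shares. The median fold was 4.54 among the higher genes and 4.05 among the lower, and the difference exceeded 16-fold for 607 and 652 of them. The median log2 difference over all genes was -0.07. In WT cells 22.0% of the same genes were called higher and 20.9% lower. Of the genes higher in Cripto KO F/A, 2478 (83.0%) were also called higher in WT, and of the lower ones 2218 (78.2%) were also called lower. A further 496 higher and 611 lower genes were not called in WT, and 19 were called in the opposite direction. Whether the genotypes differed could not be tested.

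**Figure D1:**
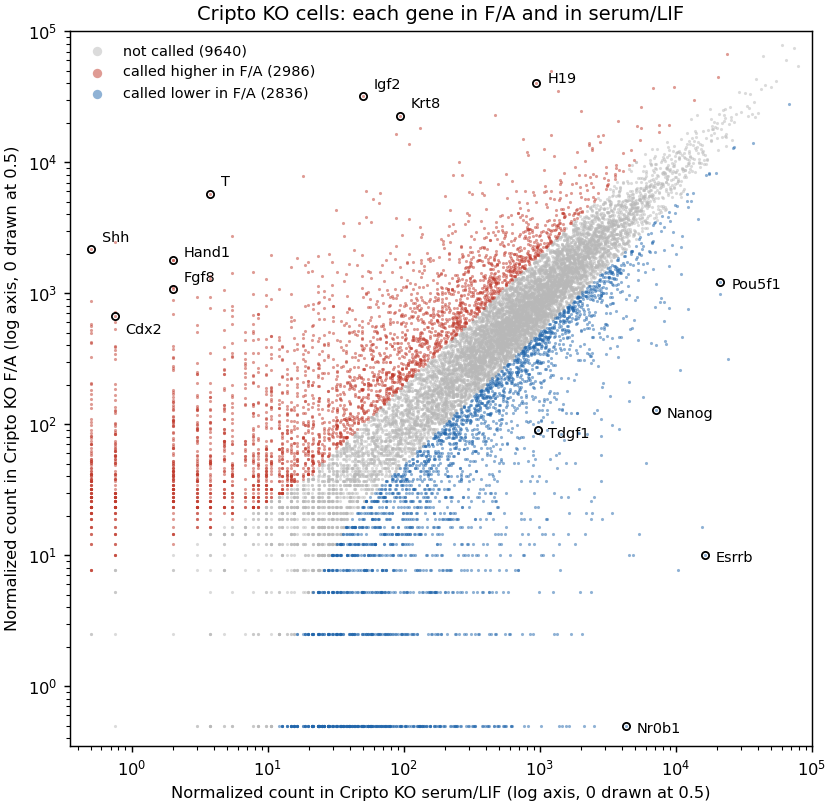
Normalized counts of each gene in the Cripto KO serum/LIF library (x axis) and the Cripto KO F/A library (y axis), on log axes with 0 drawn at 0.5. Red points are the 2986 genes called higher in F/A, blue points the 2836 called lower, grey points the 9640 not called, and some genes named in the text are circled. Shh lies at 0 on the x axis and Nr0b1 at 0 on the y axis.

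Ranked by log2 difference with 0 set to 0.5, leaving out genes whose higher library was below 200 raw counts, the genes that separated the cultures most were a set of developmental regulators silent in serum/LIF and a set of ESC and germline genes silent in F/A. Shh, a secreted hedgehog ligand made by the node and notochord, had 0 counts in serum/LIF and 2182 normalized counts in F/A (at least 727-fold). Aplnr, the receptor of apelin and Elabela on early mesoderm, rose from 0.75 to 2443, where the lower value is 1 count (3257-fold, 583 to 128766). T, the T-box factor Brachyury of the primitive streak, rose from 3.75 to 5751 (1533-fold, 598 to 5632). Actc1, cardiac actin, was at 0 in serum/LIF and at 879 in F/A (at least 293-fold), and Hand2, a bHLH factor of the heart and limb, was at 0 and 578 (at least 193-fold). Hapln1, a link protein of the hyaluronan matrix, Cdx2, a caudal homeobox factor, Tmprss2, a membrane serine protease, and the noncoding or unnamed genes Gm17493 and 9530036O11Rik completed the 10 largest increases by this ranking. Both of the last overlap Shh on chromosome 5, so reads of these 3 cannot be told apart.

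On the other side, Nr0b1, the nuclear receptor Dax1 of naive ESCs, went from 4298 normalized counts to 0 (at least 555-fold lower). Nphs1 and Kirrel2, neighbouring genes of the nephrin family, went from 2491 and 819.5 to 0 (at least 321-fold and at least 106-fold). Ooep, a maternal-effect gene of the oocyte, went from 1639 to 0 (at least 211-fold), and Tcl1, a cofactor of Akt, from 1448 to 0 (at least 187-fold). Sohlh2, Rpl10l, Dppa2 and Gm17232 were likewise at 0 in F/A. Esrrb, an orphan nuclear receptor that holds up the naive network, was the one of the 10 largest decreases by the same ranking that kept reads, with 16252 in serum/LIF and 10 in F/A (1625-fold, 635 to 5965).

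Naive pluripotency factors fell nearly throughout in the Cripto KO cells. Of 25 listed genes that were tested, 24 were lower in F/A and none was higher, with a median log2 difference of -6.48. Zfp42, the zinc-finger factor Rex1, fell from 15471 to 16.5 (938-fold, 455 to 2333) and Klf4, a Krüppel-like factor downstream of LIF, from 5763 to 159.9 (36.05-fold, 28.9 to 45.6). Prdm14, which keeps ESC DNA hypomethylated, went from 503 to 0 (at least 64.9-fold lower). Tbx3 fell less, from 4568 to 530 (8.62-fold, 7.62 to 9.79), and Stat3 less again, from 3650.2 to 1571 (2.32-fold, 2.15 to 2.51). Gbx2, a homeobox target of Stat3, was the member not called, at 515 and 362, whereas in WT its log2 difference was -3.66 and was called lower. The summed normalized counts of the list were 126644 in serum/LIF and 5748 in F/A.

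The genes shared by naive and primed cells fell as well. In the list of general pluripotency genes 12 of 15 were lower and 2 were higher, with a median of -4.02. Pou5f1, which encodes Oct4, fell from 21221 to 1223 (17.4-fold, 16.01 to 18.8), Sox2 from 12228 to 752 (16.3-fold, 14.7 to 18.1) and Nanog from 7109 to 128 (55.8-fold, 43.5 to 72.6). EpiSCs, which the F/A treatment is used to produce, are known to keep these 3 factors, but no separate EpiSC reference was among the 4 libraries. In WT the log2 differences were -3.67, -4.17 and -5.33. Foxd3, a forkhead factor of the epiblast and neural crest, fell from 1259 to 2.5 (504-fold, 90.2 to 19909), with a log2 difference of -8.98 in Cripto KO beside -4.47 in WT. Lin28a and Lin28b, RNA-binding proteins that block let-7 processing, were the members that rose, from 5442 to 14892 and from 487 to 1662. Trim71, a let-7 target in the same circuit, was not called (2154 and 2225).

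The miR-290 to miR-295 cluster, the most abundant microRNAs of mouse ESCs, moved with the pluripotency genes. Its 5 precursor genes in the table lie within chr7:3218920-3220842 of NCBIM37 and had 287 raw counts in serum/LIF and 14 in F/A, beside 293 and 43 in WT. These are reads of a library made for long RNA that fell on precursor genes, not levels of mature microRNAs. The mature 3p sequences from RefSeq (GRCm38.p6), printed 5′ to 3′ with the seed (bases 2 to 8) in capitals, show which members share a targeting rule:
mmu-miR-291a-3p: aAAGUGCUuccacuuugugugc
mmu-miR-294-3p: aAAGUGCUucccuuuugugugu
mmu-miR-295-3p: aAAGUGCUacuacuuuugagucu
mmu-miR-291b-3p: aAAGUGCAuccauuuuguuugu
mmu-miR-293-3p: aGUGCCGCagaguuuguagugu
The first 3 have the same seed, AAGUGCU, miR-291b-3p differs from it in the last base of the seed, and the seed of miR-293-3p is a different one. The precursors of the 3 that share a seed fell together: Mir291a had 44 raw counts in serum/LIF and 4 in F/A, Mir294 had 60 and 8, and Mir295 had 44 and 0. Mir291b (67 and 2) and Mir293 (72 and 0) fell as well. On the 5p side, miR-291a and miR-291b share the seed AUCAAAG:
mmu-miR-291a-5p: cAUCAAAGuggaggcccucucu
mmu-miR-291b-5p: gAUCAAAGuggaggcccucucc
AU018091, the next gene of the same run on chromosome 7, was also lower in F/A, from 3814 to 92 normalized counts (41.5-fold, 30.8 to 57.2). Of the 26 microRNA genes tested, 8 were higher and 6 lower (30.8% and 23.1%, beside 19.3% and 18.3% of all genes), so the cluster supplied 5 of the 6 that fell.

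Formative and primed epiblast genes were divided. Of 23 tested, 11 were higher and 2 lower, with a median of 0.84. Fgf5, the ligand that marks the postimplantation epiblast, rose from 0.75 to 389, the former being 1 count (519-fold, 92.02 to 20589), while the WT F/A library had 2266. Cldn6, a claudin of embryonic epithelia, rose from 472 to 3492 (7.39-fold, 6.66 to 8.22) and Sox11, a SoxC factor, from 106 to 1687 (15.9-fold, 12.95 to 19.7). Otx2, a homeobox factor of the formative and anterior epiblast, was not called, with 1040 in serum/LIF and 679.8 in F/A, while in WT it went from 1257 to 2429 without reaching 2-fold. Dnmt3b, a de novo DNA methyltransferase of the epiblast, was also not called (1947 and 2470.2), beside a log2 difference of 1.23 in WT.

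In the Nodal and Activin pathway some ligands and both Lefty antagonists fell while transcription factors downstream of it rose. Counts were 11 higher and 8 lower of 28, and the median was 0.70. Nodal itself was not called (786 and 563). Lefty1 and Lefty2, secreted inhibitors that Nodal signalling induces, fell from 2304 to 376 (6.13-fold, 5.28 to 7.14) and from 1244 to 238 (5.22-fold, 4.32 to 6.36). In WT neither was called (log2 0.90 and 0.49), with 654 in serum/LIF and 1219 in F/A for Lefty1 and 420 and 591 for Lefty2. Inhbb, which encodes the beta B chain of activin, fell from 1403 to 7.75 (181-fold, 61.8 to 879), and Pcsk6, a convertase that matures Nodal, from 1052 to 81.8 (12.9-fold, 9.35 to 18.2). Cfc1, the other EGF-CFC co-receptor of the mouse besides Cripto, rose from 4.75 to 385 (81.1-fold, 34.1 to 252). Eomes and Lhx1, transcription factors induced by Nodal, rose from 27.5 to 416 and from 2 to 319.8, and Cer1, a secreted antagonist of Nodal, BMP and Wnt, was at 0 and 85.8 (at least 28.6-fold) beside 487 in WT F/A. Tdgf1 fell 10.7-fold, 7.89 to 14.9 on top of its low level, with a log2 difference of -3.42 that lay close to the -3.40 of WT.

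FGF and LIF pathway genes moved in both directions. Of 27 FGF ligands, receptors and feedback genes, 15 were higher and 6 lower (median 1.15). These were 55.6% and 22.2%, beside 19.3% and 18.3% of all genes. Fgf4, the autocrine ligand of ESCs, fell from 2506 to 28 (89.5-fold, 51.1 to 173), and Fgf8, a ligand of the streak, rose from 2 to 1069.5 (535-fold, 147 to 4427). The feedback phosphatase gene Dusp6 rose from 1137 to 3568 (3.14-fold, 2.91 to 3.39), while Spry4, another feedback inhibitor, fell from 1960.2 to 399 (4.92-fold, 4.25 to 5.71). In the LIF and Stat3 list 6 of 16 fell, among them Socs3, the feedback inhibitor of the pathway, from 2230 to 546 (4.08-fold, 3.604 to 4.64), and Lifr, its receptor, from 2506 to 1227 (2.04-fold, 1.87 to 2.23). Jak2 was the 1 member that rose, from 128 to 621.

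Germline genes that serum-grown ESCs transcribe were lower with few exceptions. Of 32 tested, 26 were called lower and none higher, with a median of -5.88 or -5.12 with genes at 0 placed at their bound. Dazl, an RNA-binding protein of germ cells, went from 155 to 0 (at least 20.03-fold lower), and Ddx4, the germ cell helicase Vasa, from 508 to 10 (50.8-fold, 19.7 to 187). Stk31, a testis kinase, went from 462 to 0 (at least 59.6-fold), Hormad1, a protein of the meiotic chromosome axis, from 321 to 0 (at least 41.5-fold), and Mael, a piRNA pathway protein, from 556 to 2.5 (222-fold, 39.7 to 8798). Tex15, Prdm1 and Sycp1 were among the 6 not called. Outside the 32, 3 further genes of the list were left out by the deposited filter. Meiotic and germline genes of this kind are known for CpG-rich promoters with an E-box, the motif that a repressor complex of Mga and Max binds. The E-box CACGTG, its own reverse complement, was found in 11 of the 27 list promoters that RefSeq gave (40.7%), against 10.2% of the 10266 promoters of tested genes and 7.24% of all 27025 promoters in the reference. A promoter here is the window of 250 bases before to 50 after the annotated start in GRCm38.p6. Promoters of 3 of these genes are shown 5′ to 3′ on the strand of the gene, with each CACGTG in capitals.
Stk31, chr6:49395289-49395588, plus strand: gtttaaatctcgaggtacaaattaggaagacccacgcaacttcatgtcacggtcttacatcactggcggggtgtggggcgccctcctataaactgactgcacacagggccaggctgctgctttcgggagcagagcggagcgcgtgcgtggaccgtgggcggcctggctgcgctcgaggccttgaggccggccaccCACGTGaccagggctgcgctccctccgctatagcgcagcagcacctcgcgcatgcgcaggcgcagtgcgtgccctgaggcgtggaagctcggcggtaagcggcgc
Hormad1, chr3:95559427-95559726, plus strand: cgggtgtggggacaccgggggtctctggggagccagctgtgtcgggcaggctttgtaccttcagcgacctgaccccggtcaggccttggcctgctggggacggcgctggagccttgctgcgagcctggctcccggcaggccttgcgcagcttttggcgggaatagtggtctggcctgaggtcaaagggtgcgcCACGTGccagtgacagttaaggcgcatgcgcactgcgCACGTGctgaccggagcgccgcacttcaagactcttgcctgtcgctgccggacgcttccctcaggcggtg
Mael, chr1:166238695-166238994, minus strand: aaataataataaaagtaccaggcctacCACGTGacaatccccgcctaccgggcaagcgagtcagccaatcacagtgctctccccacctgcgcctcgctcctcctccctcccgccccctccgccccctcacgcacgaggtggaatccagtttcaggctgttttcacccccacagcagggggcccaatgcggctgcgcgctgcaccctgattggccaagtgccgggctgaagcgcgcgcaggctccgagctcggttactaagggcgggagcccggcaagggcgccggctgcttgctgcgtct
Hormad1 holds 2 matches and the others 1 each. Over all tested genes the E-box was in 10.9% of promoters of genes called lower and in 10.6% of those not called. A match is a description of letters and not a measured binding site, and the E-box was 1 of 11 motifs searched, chosen for printing after the shares were seen.

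**Figure D2:**
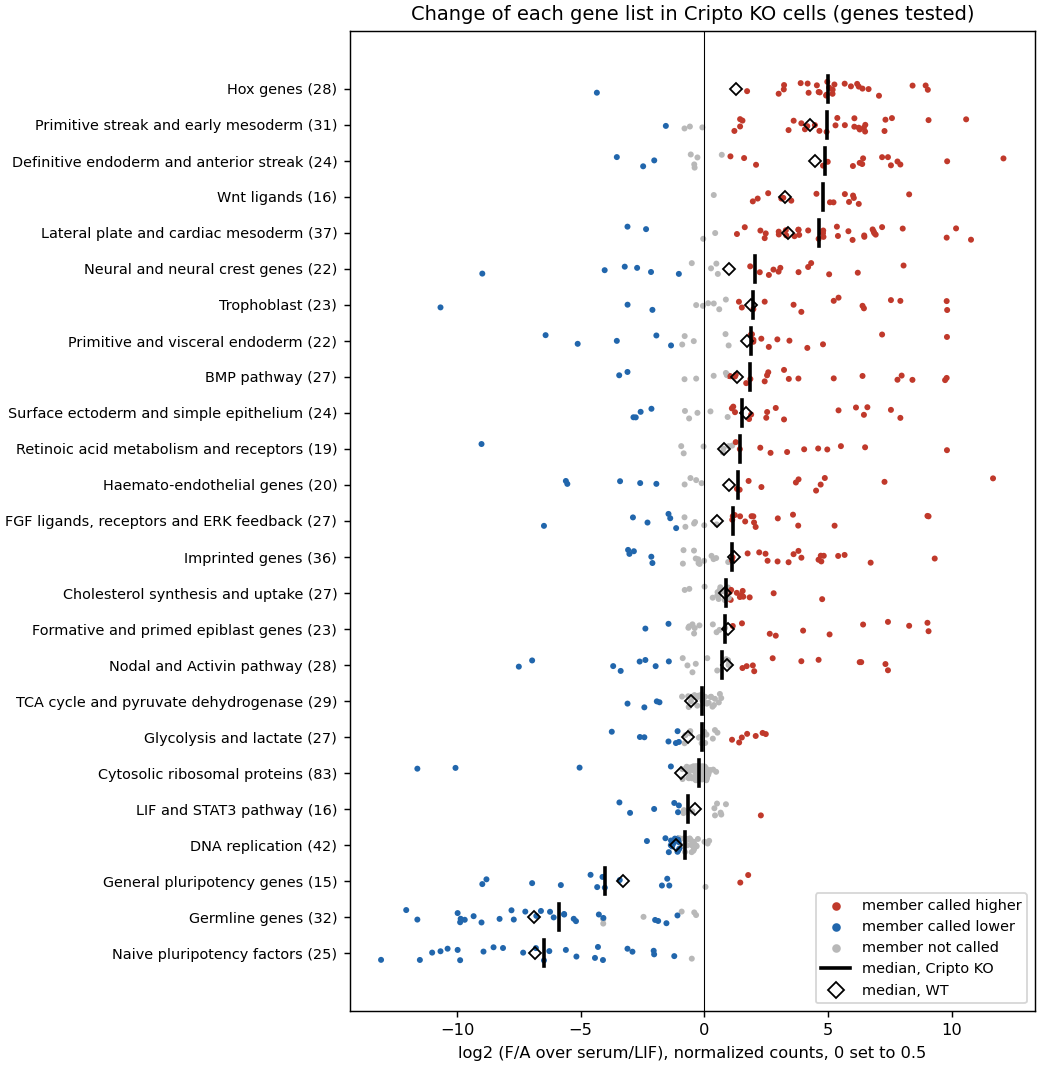
Log2 difference between F/A and serum/LIF in Cripto KO cells (x axis, 0 set to 0.5) for each tested member of the gene lists shown, with the number tested after each name. Points are genes, red where called higher, blue where called lower and grey where not called, the bar is the Cripto KO median and the diamond the WT median. The medians run from -6.48 for naive factors to 5.01 for Hox genes, and the Hox bar lies farther from its WT diamond (1.30) than that of any other list shown.

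Primitive streak and early mesoderm genes rose in the Cripto KO cells as a body. The list had 27 higher and 1 lower of 31 tested, with a median of 4.94. Kdr, the VEGF receptor Flk1 of early mesoderm, rose from 4.75 to 739.5 (156-fold, 66.1 to 482), and Meox1, a homeobox gene of the somites, from 3 to 575 (192-fold, 64.97 to 935). Sp5, a zinc-finger target of Wnt, rose from 19.8 to 1724 (87.3-fold, 56.1 to 144). Mixl1 and Mesp1, short-lived streak factors, reached 40 and 50.2 normalized counts in F/A and passed the rule from 13.8 and 3. Tbx6, a T-box gene of the presomitic mesoderm, was not called (27.5 and 26), and Tcf15 was the 1 member that fell, from 444 to 151.

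All but 1 of the tested Wnt ligands rose, 15 of 16 (93.8%, beside 19.3% of all genes), with a median of 4.80. Wnt3, the ligand that starts the streak, rose from 4.75 to 244 (51.3-fold, 21.4 to 161), Wnt5a from 37.8 to 1408 (37.3-fold, 26.8 to 53.4), Wnt6 from 36.5 to 1232 (33.8-fold, 24.1 to 48.7) and Wnt4 from 4.75 to 313 (65.9-fold, 27.6 to 206). Wnt8a and Wnt3a, posterior ligands of the streak, were at 0 in serum/LIF and at 155 and 32.2 in F/A. The deposited filter bears on the count of ligands, since the Cripto KO reads of such genes were in F/A alone. Ligands left out by it went both ways in raw counts, with Wnt8b at 9 and 4, Wnt1 at 0 and 10 and Wnt16 at 2 and 4 in serum/LIF and F/A. Among Wnt targets and antagonists 14 of 23 rose and 1 fell. Axin2, the general feedback target, rose from 102 to 847 (8.29-fold, 6.64 to 10.4), Lef1, a nuclear partner of beta-catenin, from 93.5 to 1571 (16.8-fold, 13.5 to 21.1), and Dkk1, a secreted Wnt antagonist, from 3 to 940.2 (313-fold, 107 to 1525). Ccnd1, often listed as a Wnt target, was not called (1853 and 2964).

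Most listed genes of the BMP pathway were higher. Of 27 tested, 19 were higher and 2 lower, with a median of 1.86. Among the ligands, Bmp4 rose from 359 to 1944 (5.42-fold, 4.79 to 6.15), Bmp2 from 3.75 to 1277 (341-fold, 132 to 1254), and Bmp5 was at 0 and 425 (at least 142-fold). In WT, Bmp4 had a log2 difference of 0.90 and was not called. Of the target genes, Id2 was not called (940.4 and 1718), while others rose, Id1 from 689 to 2225 (3.23-fold, 2.93 to 3.56), Id3 from 466 to 2791 (5.99-fold, 5.38 to 6.68), Msx2 from 14.8 to 554 (37.5-fold, 22.4 to 67.9) and Hand1 from 2 to 1777 (889-fold, 245 to 7349). Hand1, a bHLH factor of extraembryonic mesoderm and trophoblast, stood at 200.2 normalized counts in WT F/A. Grem1 and Tbx3 were the members that fell, and Noggin (Nog), a BMP antagonist of the node, rose from 4.75 to 1063 (224-fold, 95.3 to 692).

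Genes of lateral plate and cardiac mesoderm gave 33 higher and 2 lower of 37, with a median of 4.62, or 4.20 with genes at 0 placed at their bound. Besides Hand2 and Actc1, the cardiac T-box gene Tbx20 rose from 5.5 to 669 (122-fold, 55.3 to 334), Gata6 from 5.5 to 800.2 (146-fold, 66.3 to 399) and Gata4 from 49 to 1361 (27.8-fold, 20.7 to 38.05). Sarcomere genes were among them, with Myh7, the slow cardiac myosin heavy chain, at 16.5 in serum/LIF and 1841 in F/A (112-fold, 69.3 to 192) and Tnnt2, cardiac troponin T, at 10.5 and 193 (18.3-fold, 9.801 to 37.95). Tnnt2 had a WT log2 difference of 1.08. Ttn, which encodes titin, fell from 745 to 146 (5.12-fold, 4.02 to 6.62). The haemato-endothelial list was mixed, with 11 of 20 higher and 5 lower (55% and 25%, beside 19.3% and 18.3% of all genes). Lmo2, a cofactor of blood and vessel progenitors, rose from 9.75 to 285 (29.2-fold, 15.4 to 62.3), Tal1, its partner, was not called (77.5 and 52.5), and Pecam1, which ESCs also express, fell from 2822 to 58.2 (48.4-fold, 33.2 to 73.6).

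Definitive endoderm and anterior streak genes were higher for 16 of 24 and lower for 3, with a median of 4.89. Foxa2, a forkhead factor of node and endoderm, rose from 10.5 to 897 (85.4-fold, 47.3 to 172), Foxa1 from 7.75 to 498 (64.3-fold, 32.1 to 150.5) and Sox17, the endoderm Sox factor, from 8.5 to 269.6 (31.7-fold, 16.2 to 70.9). Trh, thyrotropin-releasing hormone, fell from 3451 to 847 (4.07-fold, 3.68 to 4.52), with a WT log2 difference of 0.30 that was not called. The list of primitive and visceral endoderm, much of which overlaps with these genes and with basement membrane, had 12 higher and 5 lower of 22. Dab2, an endocytic adaptor, rose from 96 to 584 (6.09-fold, 4.81 to 7.77), while Apoe fell from 12796 to 5030 (2.54-fold, 2.44 to 2.66) and Sox7 from 47 to 12.2 (3.84-fold, 1.53 to 12.4).

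Keratins of simple epithelia were among the largest gains. Krt8 rose from 93.5 to 22699 (243-fold, 197 to 302), Krt18, its partner, from 87.8 to 16359 (186-fold, 151 to 234) and Krt19 from 66.5 to 5815 (87.4-fold, 68.4 to 114). The trophoblast list, to which they also belong, had 14 higher and 3 lower of 23, with a median of 1.98. Cdx2 rose from 0.75 to 676, the former being 1 count (901-fold, 161 to 35679), and Gata3 from 3 to 252 (84.1-fold, 28.1 to 413), both also expressed outside trophoblast. Eomes and Hand1, given above, are also in this list and rose. Among its other members, Elf5, Tpbpa and Prl3d1 had 0 raw counts in both Cripto KO libraries. Ascl2 and Esx1 stayed at 12.2 normalized counts each in F/A. The surface ectoderm and simple epithelium list had 15 higher and 4 lower of 24 (62.5% and 16.7%, beside 19.3% and 18.3% of all genes). Grhl1 and Grhl3, grainyhead factors of the epidermis, fell from 306 to 42 and from 414 to 94.

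Neural genes were divided, with 12 higher and 6 lower of 22 tested (54.5% and 27.3%, beside 19.3% and 18.3% of all genes). Nes and Vim, intermediate filaments that many progenitors share, rose from 217 to 4331 (19.9-fold, 17.3 to 23.1) and from 2310 to 14087 (6.098-fold, 5.82 to 6.39). Pax6, a homeobox gene of the neural plate, was not called (176 and 256), Tubb3 and Elavl3, markers of young neurons, fell from 1254 to 281 and from 114 to 12.2, and Pax3, a gene of the dorsal neural tube and of muscle precursors, was at 0 and 133 (at least 44.2-fold).

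Nearly all tested Hox genes rose. Of 39 Hox genes in 4 clusters, 28 passed the deposited filter and were tested, 27 rose and 1, Hoxc13, fell. Every tested gene was called, but the filter bears on this, since genes such as Hoxd3 had their reads mostly in Cripto KO F/A. Hoxd3 had 1 raw count in serum/LIF and 398 in F/A. Hox genes left out by the filter went both ways in raw counts, with Hoxc12 at 22 and 0 and Hoxa6 at 2 and 6 in serum/LIF and F/A. The median log2 difference was 5.01, or 4.96 with genes at 0 placed at their bound. Among genes of the anterior end of the clusters, Hoxb2 rose from 9.75 to 972 (99.6-fold, 53.7 to 209) and Hoxb1 from 0.75 to 369.8, the former being 1 count (493-fold, 87.4 to 19575). In the middle of the clusters Hoxa5 rose from 4.75 to 182 (38.3-fold, 15.8 to 121) and Hoxb4 from 3.75 to 115 (30.7-fold, 11.4 to 117). Hoxb9 rose from 49 to 393 (8.02-fold, 5.83 to 11.2), while in WT it went from 52.5 to 20.2 and was called lower. Hoxb8 and Hoxd9 had 0 counts in serum/LIF and 42 and 171 in F/A. In WT, 12 of the same genes were called higher and 2 lower, with a median of 1.30. Within the clusters the gains lay side by side. All 11 tested genes from Hoxb9 to Hoxb1 (chr11:96132771-96229570, NCBIM37) were called higher, as were 9 from Hoxd10 to Hoxd1 (chr2:74529147-74603200). In WT, 4 genes of the run in the Hoxb cluster and 6 of the run in the Hoxd cluster were called higher. Several of these neighbours are antisense transcripts, and since the strand setting of the counting is not given in the sources used here, reads of overlapping genes cannot be told apart.

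**Figure D3:**
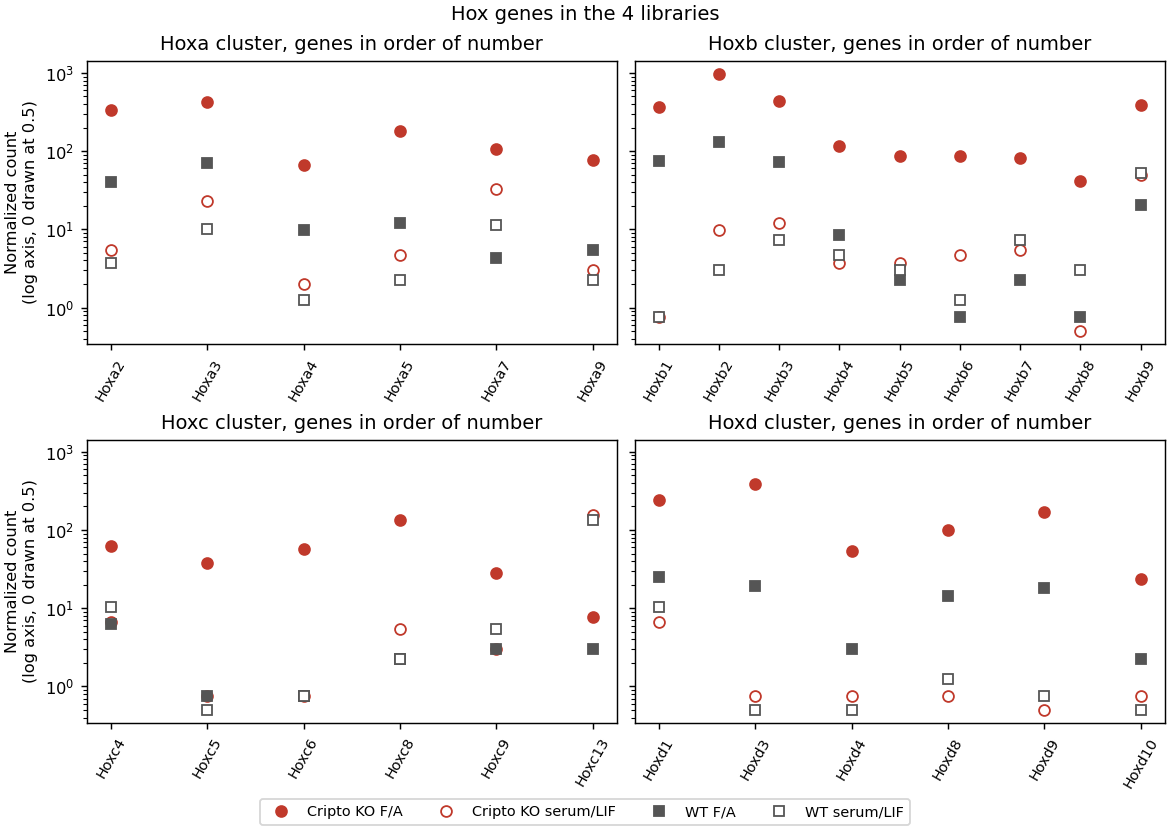
Normalized counts of 27 of the 28 tested Hox genes (y axis, log scale, 0 drawn at 0.5) in the 4 libraries, in 1 panel per cluster with genes in order of their number. Filled red circles (Cripto KO F/A) lie above open red circles (Cripto KO serum/LIF) for every gene shown but Hoxc13, where they stand at 7.75 and 158.

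Factors that work with Hox proteins and the enzymes of retinoic acid rose alongside. In the list of Cdx, Meis and Pbx genes 8 of 11 rose, including the Hox cofactors Meis1 from 14.8 to 663 (44.9-fold, 26.8 to 81.2) and Meis2 from 45 to 1646 (36.6-fold, 27 to 50.8), while Cdx1 fell from 61 to 19 (3.21-fold, 1.53 to 7.78). Of 19 retinoic acid genes 11 rose and 1 fell. Aldh1a2, the enzyme that makes retinoic acid in mesoderm, rose from 12 to 1084 (90.4-fold, 51.3 to 176) and Cyp26a1, the enzyme that degrades it, from 2 to 1792 (896-fold, 247 to 7409). Rarb, a receptor that retinoic acid induces, rose from 9.75 to 448 (45.9-fold, 24.5 to 97.01). Crabp1, a cytosolic carrier of retinoic acid, rose from 225 to 1076 (4.79-fold, 4.08 to 5.64), while in WT it fell from 407 to 113. Stra8, the retinoic acid target that opens meiosis, went from 258 to 0 (at least 33.2-fold lower).

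In the hedgehog pathway Shh was higher, as given above, and Gli1, a direct target of the pathway, fell from 3750.2 to 1184 (3.17-fold, 2.902 to 3.46). Ptch1, the receptor and a further target, was not called (6061 and 8618). In WT it went from 2148 in serum/LIF to 11200 in F/A (log2 2.38). Gli3, the main repressor among the Gli factors, rose from 213 to 2806 (13.2-fold, 11.4 to 15.4) and the co-receptor gene Boc from 78.8 to 578 (7.34-fold, 5.68 to 9.58). The list of 16 had 7 higher and 3 lower (43.8% and 18.8%, beside 19.3% and 18.3% of all genes). In the Notch pathway 13 of 20 rose and 4 fell (65% and 20%). The lower share of each list was near that of all genes. The ligands Dll1 and Dll3 rose from 133 to 307 and from 64.5 to 787, the glycosyltransferase gene Lfng from 45 to 476 (10.6-fold, 7.65 to 14.9) and the target Nrarp from 44 to 324 (7.35-fold, 5.23 to 10.5), whereas Hes1 was not called (1103 and 1181) and Notch4 fell from 300 to 48.5 (6.19-fold, 4.01 to 10.03).

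The cadherins were divided. Cdh1, which encodes E-cadherin, was not called (7674 and 9041), while Cdh2, N-cadherin, rose from 110 to 3674 (33.4-fold, 27.4 to 41.03). Snai1, Snai2 and Twist1, factors of epithelial-mesenchymal transition, rose from 121 to 330, from 23.2 to 228 and from 75.5 to 1052, and the list had 12 higher and 1 lower of 23. Of 38 collagen genes 21 rose and 8 fell (55.3% and 21.1%, beside 19.3% and 18.3% of all genes). The collagens of basement membrane, Col4a1 and Col4a2, rose from 779 to 6027 (7.73-fold, 7.14 to 8.38) and from 403 to 4374 (10.8-fold, 9.73 to 12.1). Col2a1, of cartilage and notochord, rose from 225 to 2857 (12.7-fold, 11.01 to 14.8). Col6a3 fell from 351 to 7.75 (45.3-fold, 15.4 to 221). The laminin and basement membrane list had 12 higher and 1 lower of 23, and Fn1, fibronectin, was not called at 43565 and 64315.

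Fibroblast markers were checked because feeder cells can enter such cultures, and they were not uniform. Thy1, Dcn and S100a4 were lower in F/A, from 361 to 32.2, from 432 to 21 and from 268 to 23.5, while Acta2 and Tagln, smooth muscle and early mesoderm genes, rose from 52.5 to 6033 (115-fold, 87.2 to 155) and from 110 to 13664 (124-fold, 103 to 152). Of 16 tested, 8 were higher and 3 lower (50% and 18.8%, beside 19.3% and 18.3% of all genes). The summed normalized counts of the list were 4566 in serum/LIF and 31876 in F/A. The part of the fibroblast markers in the mesoderm result was not tested.

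Some imprinted genes had gains among the largest in normalized counts. Of 36 tested, 19 rose and 5 fell, with a median of 1.13. Igf2, the growth factor expressed from the paternal copy, rose from 50.2 to 31939 (636-fold, 481 to 859.5), H19, its maternally expressed noncoding neighbour, from 942 to 40009.5 (42.5-fold, 39.8 to 45.5), and Peg3 from 1349 to 35219 (26.1-fold, 24.7 to 27.6). Cdkn1c, the cell cycle inhibitor p57, rose from 292 to 4073 (13.96-fold, 12.3 to 15.9). At the Dlk1-Dio3 locus the noncoding RNAs of the maternal copy fell, Meg3 from 3934 to 464 (8.47-fold, 7.43 to 9.71), Rian from 3791 to 464 (8.17-fold, 7.16 to 9.35) and Mirg from 202 to 28 (7.21-fold, 4.03 to 14.2). The protein-coding genes of the paternal copy did not fall there, with Dlk1, a transmembrane Notch-like ligand, from 131 to 3218 (24.5-fold, 20.4 to 29.7), Dio3, a deiodinase, from 21.5 to 72.2 (3.36-fold, 1.91 to 6.03), and Rtl1 not called (38.5 and 38.2). In WT, Meg3 went the other way, from 4965 to 10619, and Rian, Mirg and Dlk1 were not called (log2 0.56, 0.18 and -0.25). Expression alone does not show which copy was read.

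**Figure D4:**
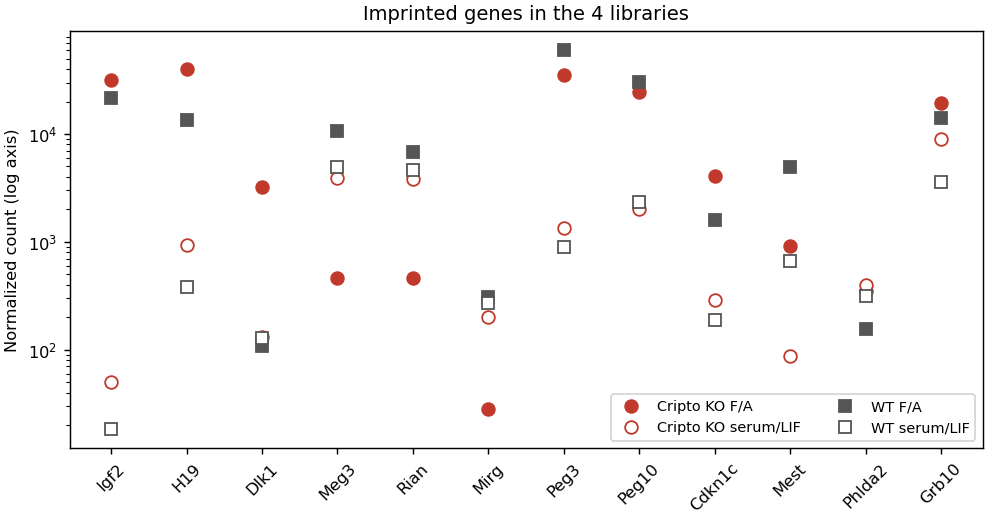
Normalized counts of 12 imprinted genes (y axis, log scale) in the 4 libraries. The filled red circles (Cripto KO F/A) lie below the other 3 libraries for Meg3, Rian and Mirg and above them for Dlk1, at 3218.

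Genes of DNA replication were lower as a group but by small folds. Of 42 tested, 16 were called lower and none higher, with a median of -0.77. Orc1, the large subunit of the origin recognition complex, fell from 1838 to 368 (4.998-fold, 4.297 to 5.84), Mcm5, a subunit of the replicative helicase, from 8733 to 3825 (2.28-fold, 2.17 to 2.402) and Mcm6, another, from 8895 to 4203 (2.12-fold, 2.02 to 2.22), while Pcna, the sliding clamp, was not called (5311 and 4282). E2F factors bind promoters of such genes at a motif of which TTTGGCGC and TTTCCCGC are forms. Either of these, on either strand, was found in 11 of the 33 list promoters given by RefSeq (33.3%), against 2.95% of the promoters of tested genes and 1.63% of all promoters in the reference. Over all tested genes a match was in 3.41% of promoters of genes called lower and in 3.09% of those not called. A pair of list promoters with a match, both of genes called lower, is shown with the matches in capitals.
Mcm5, chr8:75109259-75109558, plus strand: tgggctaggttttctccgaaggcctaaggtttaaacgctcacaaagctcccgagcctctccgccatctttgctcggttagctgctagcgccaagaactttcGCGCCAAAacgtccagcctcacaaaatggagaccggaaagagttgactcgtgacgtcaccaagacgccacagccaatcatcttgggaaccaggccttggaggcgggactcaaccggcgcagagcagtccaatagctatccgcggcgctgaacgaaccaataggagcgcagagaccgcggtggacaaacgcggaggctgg
Mcm6, chr1:128359656-128359955, minus strand: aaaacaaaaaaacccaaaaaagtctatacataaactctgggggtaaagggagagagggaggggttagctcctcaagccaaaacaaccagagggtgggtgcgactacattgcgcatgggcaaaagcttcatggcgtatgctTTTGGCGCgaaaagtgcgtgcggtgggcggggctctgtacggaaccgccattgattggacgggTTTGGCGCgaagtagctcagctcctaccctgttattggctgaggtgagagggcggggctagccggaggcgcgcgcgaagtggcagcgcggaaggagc
The match in Mcm5 reads on the opposite strand and Mcm6 holds 2. Cdc6, another gene of the list, also holds 1 match but was not called (1044 and 651), and Cdc45 holds 0. The E2F motif was 1 of the 11 motifs searched, and a match is not a measured binding site. Among G1 regulators 4 rose and 4 fell of 20 (20% each), near the 19.3% and 18.3% of all genes. Ccnd2, a D-type cyclin, rose from 229.8 to 8026 (34.9-fold, 30.5 to 40.2), whereas Ccne1, cyclin E1, fell from 2536 to 713 (3.56-fold, 3.18 to 3.99). The p53 list had 6 higher and 2 lower of 26 (23.1% and 7.69%). In it Bcl2, an inhibitor of apoptosis, rose from 18.2 to 402 (22.01-fold, 13.6 to 37.9). Cdkn1a, the inhibitor p21, was not called (1180 and 2034) and Gdf15 fell from 381 to 26.

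Among chromatin regulators calls went in both directions. Dnmt3l, the partner of de novo methyltransferases in ESCs, fell from 4485 to 10 (449-fold, 175 to 1647), and the 5-methylcytosine dioxygenase genes split, with Tet1 lower from 8130 to 859.8 (9.46-fold, 8.58 to 10.4), Tet2 lower from 4492 to 209.6 (21.4-fold, 17.7 to 26.3) and Tet3 higher from 431 to 2526 (5.86-fold, 5.24 to 6.57). The DNA methylation list had 3 higher and 4 lower of 18 (16.7% and 22.2%), beside 19.3% and 18.3% of all genes. Of 30 Polycomb genes 6 rose and 8 fell (20% and 26.7%), shares near those of all genes. Cbx7, the main Cbx subunit of ESCs, fell from 2745 to 460.2 (5.96-fold, 5.22 to 6.84). Eed and Suz12, core subunits of PRC2, fell from 5137 to 944 (5.44-fold, 4.95 to 5.99) and from 4812 to 1634 (2.95-fold, 2.73 to 3.18), while Ezh2, its methyltransferase, was not called (3957 and 2653).

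Genes of energy metabolism changed less than those of cell identity. Glycolysis genes had 7 higher and 7 lower of 27, 25.9% each beside 19.3% and 18.3% of all genes. Pfkp, the platelet form of phosphofructokinase, fell from 8197 to 613 (13.4-fold, 11.9 to 15.04) and Ldhb, the lactate dehydrogenase B chain, from 7132 to 1172 (6.09-fold, 5.59 to 6.63), while Ldha was not called (13763 and 17455). Of the transporters, Slc2a1, the glucose carrier Glut1, rose from 5523 to 18311 (3.32-fold, 3.21 to 3.43) and Slc16a1, the lactate carrier Mct1, from 1799 to 9203 (5.12-fold, 4.84 to 5.404). No gene of the TCA cycle list rose and 4 of 29 fell (13.8%, beside 18.3% of all genes). Among the 4 was Pdk1, a kinase that switches off pyruvate dehydrogenase, from 2974 to 554 (5.37-fold, 4.75 to 6.09). In complex I of the respiratory chain 2 of 37 subunit genes were called lower, both just past 2-fold and 0 of them under each of the other 3 scalings, and in complexes II to V 6 of 42. Their medians were -0.33 and -0.49, beside -1.16 and -1.23 in WT, where 23 and 29 of the same genes were called lower. Cox7a1, a complex IV subunit of muscle, fell from 60.2 to 16.5 (3.65-fold, 1.67 to 9.48), while in WT it fell from 114 to 7.5. Ppargc1b, a coactivator of mitochondrial biogenesis, was not called (99.2 and 117). The 12 mitochondrially encoded genes had no call, with a median of -0.43, and 1 of them was called lower when counts were scaled by library totals alone.

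Among regulators of mitochondria and hypoxia 5 of 23 rose and 5 fell (21.7% each), near the 19.3% and 18.3% of all genes. Car4, a carbonic anhydrase, rose from 31.5 to 4313 (137-fold, 96.2 to 202), and Epas1, the factor Hif2a, fell from 1207 to 236 (5.12-fold, 4.23 to 6.23). Tdh, the threonine dehydrogenase on which mouse ESCs depend, went from 141 to 0 (at least 18.2-fold lower), and 6 of 26 genes of its list fell (23.1%, beside 18.3% of all genes). The noncoding Gm17232, named above, lies within Tdh, so reads of the pair cannot be told apart. No cholesterol gene fell and 11 of 27 were called higher, with a median of 0.87. Cyp51, a demethylase of the pathway, rose from 772 to 2749 (3.56-fold, 3.25 to 3.9), while Sqle, squalene epoxidase, was not called (1036 and 1619.5).

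Ribosomal and proteasome genes had few calls, and tissue-restricted paralogs were among them. Of 83 cytosolic ribosomal protein genes 4 were called lower and none higher, and Rpl10l, Rpl39l and Rpl3l among these are copies restricted to few tissues, whose reads can be shared with their near-identical parents. The medians were -0.20 for the cytosolic and -0.30 for the mitochondrial ribosome, beside -0.93 and -0.86 in WT. In the mitochondrial ribosome 6 of 75 were called lower. Of 38 proteasome genes 3 rose, the immunoproteasome subunits Psmb8 from 12.8 to 397 (31.1-fold, 17.8 to 59.5), Psmb9 from 3 to 26 (8.67-fold, 2.29 to 48.4) and Psmb10 from 288 to 649 (2.26-fold, 1.91 to 2.66), and Psma8, a testis subunit, fell from 425 to 2.5 (170.1-fold, 30.4 to 6735). Of the 2-cell-like genes 1 was tested and it was not called, and of 6 Y-linked genes 1, Ube1y1, was called lower, from 32.5 to 0.

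Genes of chromosome 1 were lower in F/A more often than those of other autosomes. Among genes with a mean of at least 200 normalized counts over the 4 libraries, the 556 on chromosome 1 had a median log2 difference of -0.42, 390 of them were below 0, and 24.6% were called lower. The other 18 autosomes had medians of -0.12 to 0.06 and 8.95% to 15.2% called lower, and chromosome X had a median of 0.24 over 307 genes. In the 9 windows of 20 Mb along chromosome 1 that held at least 20 such genes, the median lay between -0.68 and -0.30. None of these windows reached the range of the other autosomes. The window between those starting at 80 and 120 Mb held fewer genes and was left out. WT cells had a median of -0.49 on chromosome 1, with -0.61 to -0.30 over the windows. The number of chromosome copies was not measured, and its part in single genes was not tested. Of the genes named above, Lefty1, Lefty2, Inhbb, Prdm14, Gbx2, Mael, Mcm6, Col6a3, Fn1, Sox17, Cfc1, Mixl1, Pax3, Tnnt2, Wnt6 and Bcl2 lie on chromosome 1.

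**Figure D5:**
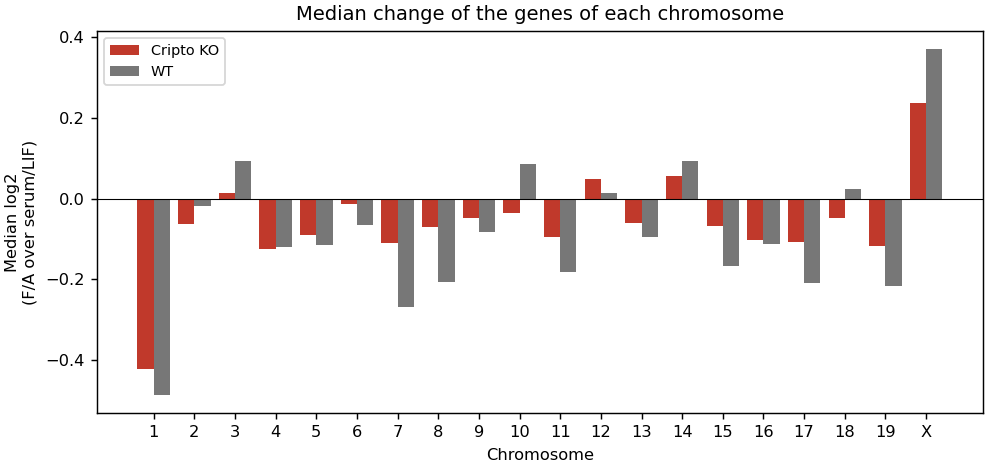
Median log2 difference between F/A and serum/LIF of the genes of each chromosome (bars from 0), over genes with a mean of at least 200 normalized counts, in Cripto KO (red) and WT (grey). Chromosome 1 stands at -0.42 in Cripto KO and -0.49 in WT, and the other autosomes of Cripto KO cells lie between -0.12 and 0.06.

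The differences depended little on transcript length in the Cripto KO cells. From the shortest to the longest of 8 equal groups of genes by transcript length, the median log2 difference went from -0.17 to 0.08 in Cripto KO and from -0.43 to 0.45 in WT. With the running median over length subtracted, 5555 of the 5822 called genes were called the same way and 0 the opposite way.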

How the data were processed

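The members and gene lists were chosen with earlier results of these data known. Per the paper's methods, the authors mapped paired-end reads to mm9, the build NCBIM37, using TopHat2 2.0.13, made raw counts of Ensembl 67 genes using HTSeq 0.6.1p1 and deposited these counts. The strand setting is not given in the sources used here. The authors also deposited a signal table of these counts after full quantile normalization and a filter at 1 cpm, and recomputing the normalization from the raw counts gave the same values (largest difference 0). Quantile normalization forces equal distributions, so a change shared by most genes cannot be seen.

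Each column was matched to its culture by name, with 0 columns left over. Log2 differences used the normalized values with 0 set to 0.5. Calls needed a 2-fold difference and a 95% Clopper-Pearson interval excluding 1. The interval was taken on raw counts, those of Cripto KO F/A divided by 2, rescaled to the normalized ratio, and covers counting error but not normalization or culture. The study's NOISeq simulation was not used, as it rests on simulated libraries. The calling rule was run on simulated counts with known changes. Those counts held counting error only, so that run does not cover variation between cultures. Single libraries give no p-value.

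Genes were named by rule when the study names them for its sequencing, when they were among the 10 largest differences per direction with at least 200 raw counts, or when they were core members or among the 3 largest differences of 1 of 46 lists with at least 100 raw counts. Some genes that the rule names are not reported here, and other genes were named after their values were seen. Symbols came from an Ensembl 65 annotation of NCBIM37, which named 15424 genes (99.8%). Where a symbol stood for more than 1 gene, the protein-coding one with the most counts was taken. Sequences came from RefSeq for GRCm38.p6. Alternatives were other scalings (edgeR 4.0.16 TMM, DESeq2 1.42.0), added constants, filters, fold thresholds, halving and length correction. Scripts ran in Python 3.11.15 and R 4.3.3.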

Additional observations from a re-analysis of the deposited data

Results flagged for a closer look

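The log2 difference of Hoxb9 was 3.0 in Cripto KO, from 49 to 393 normalized counts, and -1.37 in WT, from 52.5 to 20.2. It is given here because the genotypes moved in opposite directions, and the difference was not tested. For the same reason, Meg3 is listed with -3.08 in Cripto KO and 1.10 in WT, and Crabp1 with 2.26 and -1.85. These 3 are the genes named by rule among the 19 that were called in opposite directions, with none of the differences tested.

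Outside the normalized table, 2602 of the 22158 genes left out by the deposited filter had counts above the detection limit in a Cripto KO library. The highest of them reached 18 raw counts in Cripto KO F/A and 22 in Cripto KO serum/LIF, so their differences rest on few reads and were not analysed further.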

How the results depend on the processing

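No paired analysis was possible because each condition was 1 library and the labels carry no replicate numbers, and no library could be left out. With the fold threshold raised from 2 to 3, 3837 genes were called in place of 5822, and 1802 lower genes in place of 2836. The total stayed within 1.5 times the reported one under the other alternatives, at 5884 with total-count scaling, 5887 with TMM, 5892 with DESeq2 size factors, 5666 with 5 added to every value, 4203 with a mean raw count of at least 50, 6326 without a filter, 6077 by fold alone, 5168 among protein-coding genes, 5999 without halving in the interval, 5803 with Cripto KO F/A halved before normalization, and 5797 after subtracting the running median over transcript length. Of 2609 values of the 292 genes named by rule, 77 left the counting interval. No value of a called gene among them changed sign, and no called gene was called the other way. Sign changes of uncalled genes were not counted. Of 1104 counts in gene lists 44 moved by over 1.5 times, and the 184 list medians moved by less than 0.5. With a mean raw count of at least 50, the Wnt ligands called higher went to 9 and the Hox genes to 13, since these genes have few reads. Complex I went from 2 lower subunits to 0 under each of the other 3 scalings. Depth limits most the genes near the detection limit, whose intervals are the widest.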

Other observations

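Some interferon-induced and MHC class I genes were not among the lists and were looked at after their values were seen. Gbp2, an interferon-induced GTPase, rose from 10.5 normalized counts in serum/LIF to 1960 in F/A (187-fold, 104 to 375). Isg15, a ubiquitin-like protein that interferon induces, rose from 7.75 to 436 (56.2-fold, 28.03 to 132) and Usp18, the protease that removes it, from 7.75 to 584 (75.4-fold, 37.8 to 176). The GTPase genes Irgm1 and Igtp rose from 38.5 to 953 and from 18.8 to 306, and the RNA sensor gene Ifih1 from 7.75 to 137. Tap1, a peptide transporter of antigen presentation, rose from 68 to 562 (8.26-fold, 6.301 to 10.97), H2-K1, a class I heavy chain, from 481 to 2587 (5.38-fold, 4.84 to 6.001) and B2m, its light chain, from 501 to 1346 (2.69-fold, 2.39 to 3.03). Others did not move in this way, as Ifitm3 (625 and 859.8), Oas1a (120.2 and 162) and Irf7 (13.8 and 21) were not called, and Nlrc5, a class I transactivator, fell from 58.2 to 16.5. The 9 higher genes named here were called higher in WT as well.

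Among genes called in Cripto KO and not in WT, the following were also named after their values were seen. Cxcl12, a chemokine of stromal cells, rose from 118 to 468 (3.98-fold, 3.17 to 5.02), with 118 and 92 in WT. Pdgfrb, a receptor of perivascular and mesenchymal cells, rose from 167 to 872 (5.22-fold, 4.34 to 6.3), with 165 and 288 in WT, and Col3a1, a fibrillar collagen, from 154 to 605 (3.93-fold, 3.21 to 4.82), with 118 and 73.8. Des, which encodes desmin, rose from 433 to 1365 (3.15-fold, 2.78 to 3.57) and Smyd1, a methyltransferase of striated muscle, from 59.5 to 332 (5.58-fold, 4.12 to 7.66). Among the lower ones were Neat1, the noncoding RNA of paraspeckles, from 8947 to 772 (11.6-fold, 10.5 to 12.9), Fzd5, a Wnt receptor, from 4949 to 627 (7.89-fold, 7.04 to 8.87), and Deptor, an inhibitor of mTOR, from 568 to 102 (5.58-fold, 4.16 to 7.63). The difference between the genotypes was not tested.

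Called genes also lay next to each other outside the Hox clusters. There, runs of at least 6 consecutive tested genes called the same way numbered 12 for higher genes, with 83 genes, and 13 for lower genes, with 107. Such a run held 8 higher genes of the MHC from Psmb9 on (chr17:34318933-34597679 of NCBIM37) and another 8 from Gbp8 to Lrrc8c (chr5:105443172-106042037). The lower runs with the most genes held 21 from Gm13247 to Gm13157 (chr4:145658647-147183895), 12 from Gm14421 to C330013J21Rik (chr2:176838221-177660318) and 9 from Gm13230 to Gm13235 (chr4:145036643-145489878). The genes of such runs can be near-identical copies, among which the counting can split or drop reads, so single values there are uncertain.

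By size in normalized counts, which favours long and abundant transcripts, the gains were led by Tpm1, a tropomyosin of actin filaments, from 1204 to 50091 (41.6-fold, 39.2 to 44.2), and included Podxl, a sialomucin of apical membranes, from 464 to 22974 (49.5-fold, 45.03 to 54.5). The losses included Spp1, the secreted protein osteopontin, from 24120.2 to 313 (77.1-fold, 65.9 to 90.7), and Mybl2, a cell cycle factor of ESCs, from 20968 to 989.8 (21.2-fold, 19.4 to 23.2).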
